A study of Mus musculus with 36 samples.

Results

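The expression of 47 genes of the cell division cycle was followed through the chemical conversion of mouse fibroblasts to photoreceptor-like cells and through the postnatal maturation of mouse rods. The genes were taken by symbol from a table of 15289 genes and comprise 19 genes of DNA replication and 28 genes of mitosis. The replication genes were divided into nucleotide supply (4 genes), origin licensing (8), the replication fork (3) and control of the G1/S transition (4). The mitosis genes were divided into cyclins, kinases and their transcription factor (8), checkpoint and anaphase control (5), kinetochore and centromere (7), spindle and cytokinesis (6) and chromosome structure (2). All 47 were found, in 48 rows, and all 47 passed the filter on low values in each comparison. Kif11 has 2 identifiers with the same values in all libraries. It was counted once, and its level is uncertain, since how reads were shared out between both copies is not known. A further 13 of the genes overlap another gene of the table. The strand of the library kit is not given, so reads of such pairs may be mixed for Tk1, Cdt1, Mcm7, Cdc45, Lig1, Ccne2, Cdk2, Ccna2, Cdc20, Ube2c, Kif20a, Nusap1 and Prc1.

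All cells carried the genotype that the labels call Nrl-GFP, a green fluorescent protein driven by regulatory sequence of Nrl, a regulator of rod fate. The starting cells were untreated embryonic fibroblasts of passage 2 (MEF, n = 3). These were treated with 5 chemicals in an induction medium for 11 days. Intermediates were sampled on day 5 (n = 3) and day 8 (n = 3) and photoreceptor-like cells, here CiPC, on day 11 (n = 3). Rods were isolated at postnatal day 5 (P5, n = 3) in the same series. Rods of P2 (n = 2), P4 (n = 2), P6 (n = 3), P10 (n = 4), P14 (n = 3) and P28 (n = 4) were reused from an older series, except that for P10 replicate 3 and P14 replicate 3 no older sample is listed. A protocol listed alike for all samples says that cells were sorted on the reporter, and where this was done a group is what its sort kept. Nrl itself was under 1 CPM in all MEF, day 5 and day 8 libraries and at 30.9, 30.4 and 30.7 CPM in CiPC. Whether MEF and the intermediates were sorted in this way is not settled by the shared protocol. The labels do not say that replicates were separate cultures or animals, and p-values measure only how much these samples spread, a spread that may be technical.

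Levels are the authors' normalized CPM. They are not whole numbers and their column sums ran from 719752 to 2277242, with all P28 columns above 1435384, the highest sum of any other age, so the sequencing depth is unknown and no counting interval can be given. The 12 rod markers summed to 3.97 to 4.77 CPM in MEF, 451 to 458 CPM in CiPC and 8427 to 8890.3 CPM in P5 rods, and none of them had a mean under 1 CPM in CiPC or in any rod group. The libraries P10 replicate 4 and P14 replicate 3 stood apart from the others of their age, with correlations down to 0.955 at P10 and 0.936 at P14. Counts over the older rods are therefore also given without them. Changes are differences in log2(CPM + 1), which understate the change of genes near 0 CPM. A gene was called higher or lower at a Benjamini-Hochberg adjusted p under 0.05 (limma, over all genes tested) together with a fold of at least 2.

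A dividing cell first makes deoxynucleotides and loads the MCM helicase on replication origins, then copies its DNA, and only later makes the cyclins, kinases, kinetochore proteins and spindle motors that separate the chromosomes. E2F factors drive much of the first group of genes. The second group is driven through CCAAT boxes and a short element called the CHR (cell cycle genes homology region), which are bound by NF-Y and by the MuvB complexes. In the mouse retina, progenitors divide into the days after birth and a rod precursor leaves the cycle before it matures.

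The promoter windows of both classes were searched for the short words of these elements. Windows from 250 bases before to 50 after the RefSeq start (GRCm38.p6) were found for 40 of the 47 genes. Kif20a, Ccne2, Ccna2, Tpx2, Foxm1, Aurkb and Mcm4 had no match by symbol. Both strands were searched for 4 E2F words (TTTCCCGC, TTTGGCGC, TTTCGCGC and TTTGCCGC), for the CHR words TTTGAA and TTCGAA and for CCAAT. Overlapping words were each counted. An E2F word was present in 8 of 20 windows of replication genes (40%), in 1 of 24 windows of mitosis genes (4.17%) and in 2.26% of all 32851 promoter windows. A CHR word was present in 3 of 20 replication windows (15%), 18 of 24 mitosis windows (75%) and 19.2% of all windows. CCAAT was present in 55%, 79.2% and 37.4% of these sets, and a CHR word together with CCAAT in 15%, 70.8% and 7.52%. These matches describe letters and not bound sites, and some genes have more than 1 window.

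Below are the 150 bases upstream of the start of 7 genes, written 5′ to 3′ on the gene's strand, with matched words in capitals. They are shown because the first 3 are replication genes with an E2F word, Mki67 and Top2a had the largest decreases in rods, and Rrm1 and Bub1b are genes without a called decline with rod age. A word on the opposite strand reads in reverse complement, as ATTGG for CCAAT and TTCAAA for TTTGAA.
Mcm6 (chr1:128359706-128359855, minus strand): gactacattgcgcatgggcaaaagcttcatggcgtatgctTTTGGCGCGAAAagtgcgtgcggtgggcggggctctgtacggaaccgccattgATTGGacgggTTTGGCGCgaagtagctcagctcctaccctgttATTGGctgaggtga
Mcm5 (chr8:75109359-75109508, plus strand): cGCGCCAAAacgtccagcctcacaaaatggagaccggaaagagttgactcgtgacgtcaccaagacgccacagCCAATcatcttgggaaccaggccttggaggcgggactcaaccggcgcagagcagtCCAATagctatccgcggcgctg
Cdc6 (chr11:98908001-98908150, plus strand): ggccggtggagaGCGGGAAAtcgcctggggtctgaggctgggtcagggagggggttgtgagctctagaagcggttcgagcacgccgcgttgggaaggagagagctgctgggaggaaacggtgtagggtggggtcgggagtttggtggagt
Rrm1 (chr7:102441545-102441694, plus strand): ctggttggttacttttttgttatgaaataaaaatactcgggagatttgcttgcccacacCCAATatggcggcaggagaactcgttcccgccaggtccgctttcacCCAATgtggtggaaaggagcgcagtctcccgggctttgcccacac
Mki67 (chr7:135716380-135716529, minus strand): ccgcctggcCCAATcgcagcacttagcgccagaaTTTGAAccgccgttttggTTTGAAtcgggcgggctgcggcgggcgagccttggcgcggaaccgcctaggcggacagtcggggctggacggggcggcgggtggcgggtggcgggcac
Top2a (chr11:99024190-99024339, minus strand): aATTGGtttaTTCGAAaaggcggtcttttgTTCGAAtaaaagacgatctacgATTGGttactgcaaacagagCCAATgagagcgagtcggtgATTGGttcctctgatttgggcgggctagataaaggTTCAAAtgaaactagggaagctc
Bub1b (chr2:118598061-118598210, plus strand): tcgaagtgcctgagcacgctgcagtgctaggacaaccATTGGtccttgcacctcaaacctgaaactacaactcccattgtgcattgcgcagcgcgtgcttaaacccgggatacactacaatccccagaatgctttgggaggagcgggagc

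Mcm6 held 3 E2F words in this stretch, of which a pair overlap, and Mcm5 and Cdc6 held 1 each. Mki67 held 2 CHR words and 1 CCAAT box, and Top2a 3 CHR words and 4 CCAAT boxes. Rrm1 held 2 CCAAT boxes and none of the E2F words, and Bub1b held 1 CCAAT box here. Bub1b also held CHR words outside the stretch shown but inside the searched window, with first bases at -188 and 41 from the start. Over the searched window Bub1b, like Mki67 and Top2a, thus held both CHR words and CCAAT.

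Summed over the 28 mitosis genes, the level was 719 ± 12.6 CPM in MEF (SD, n = 3), 1298 ± 7.38 on day 5, 1517 ± 78.8 on day 8 and 2524 ± 144 in CiPC. The libraries of successive groups did not overlap at any of the 3 steps. The 19 replication genes summed to 823 ± 12.5, 1138 ± 7.16, 1470.1 ± 12.1 and 1631 ± 33.2 CPM, also without overlap. In rods of the older series the mitosis sum was 2442 to 2573 CPM at P2, 1089.8 to 1257 at P4, 376 to 511 at P6, 79 to 113 at P10, 92.6 to 167 at P14 and 109 to 122 at P28. In P5 rods of the newer series it was 116 to 125 CPM, below all libraries of P4 and P6. The replication sum was 1308 to 1429.7 CPM at P2, 237 to 285 at P10 and 376 to 458 at P28, so that it was higher at P28 than at P10 on this scale. Its mean went from 262 to 423 CPM. Most of this was Pcna, from a mean of 128 to 213 CPM, Rrm1, from 43.6 to 95.7, and Lig1, from 11 to 33.9. The class median of log2(CPM + 1) did not rise, at 2.14 to 2.72 at P10 and 2.03 to 2.33 at P28. In these bulk samples more dividing cells and more RNA per dividing cell cannot be told apart.

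**Figure D1:**
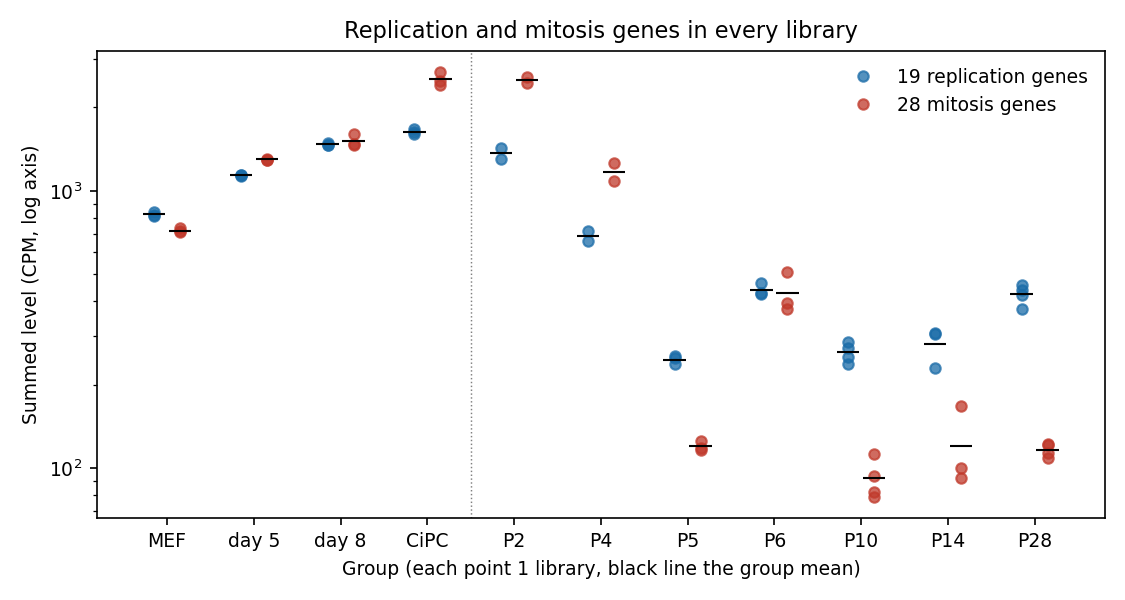
Summed CPM (log axis) of the 19 replication genes (blue) and the 28 mitosis genes (red) in each of 33 libraries, by group; points are libraries and black lines group means. Mitosis genes summed to 2404 to 2684 CPM in CiPC and 116 to 125 CPM in P5 rods.

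**Figure D2:**
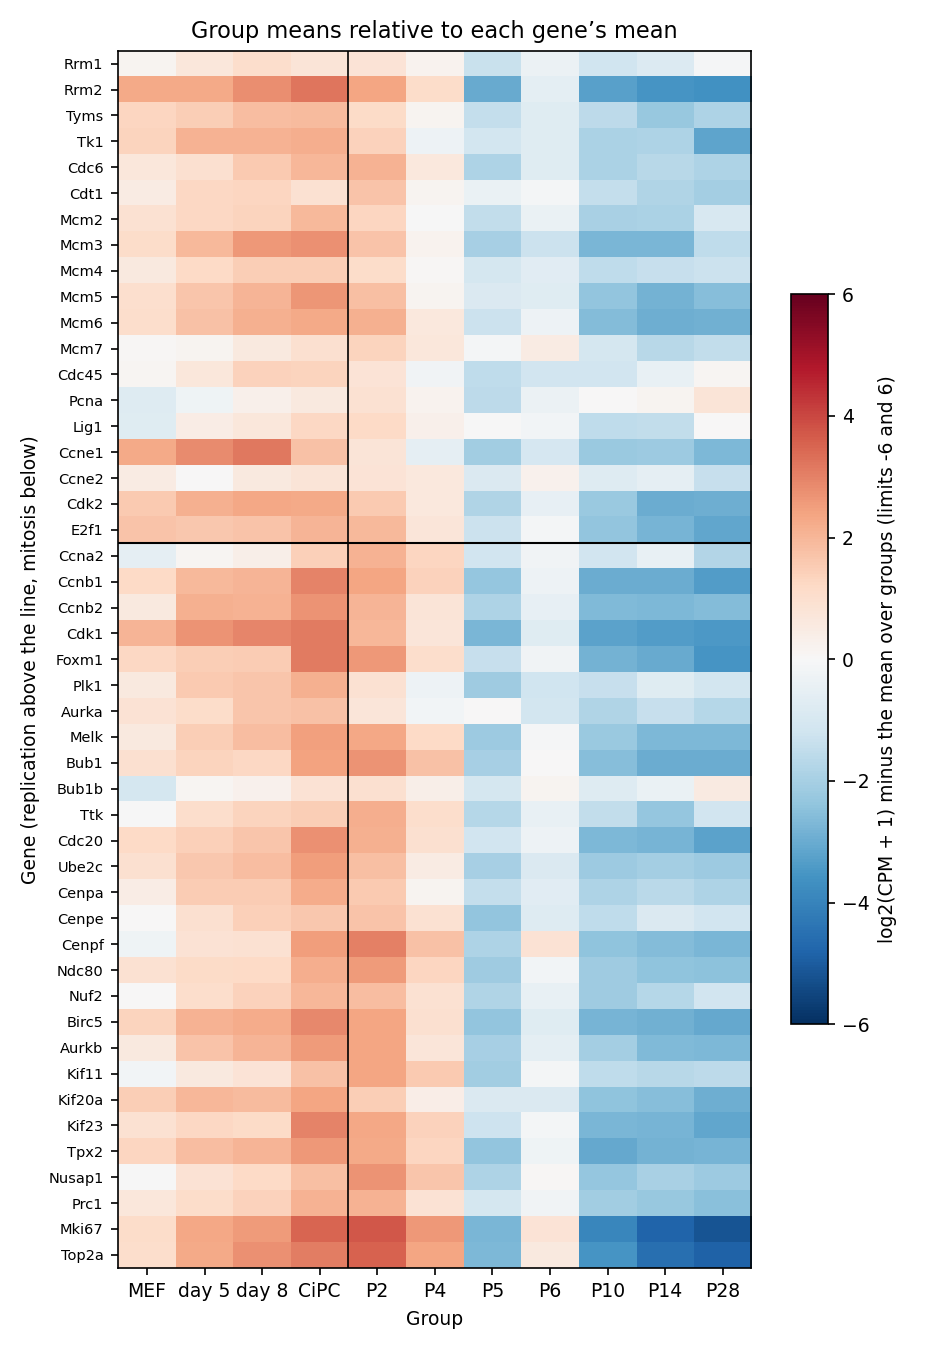
Group mean of log2(CPM + 1) for each of the 47 genes minus that gene's mean over the 11 groups, with replication genes above the horizontal line and cultured cells left of the vertical line. Most genes are above their own mean (red) in the cultures and in P2 and P4 rods and below it (blue) from P10 onward, while Pcna, Rrm1, Cdc45, Lig1 and Bub1b are near or above their own mean at P28.

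The comparison of day 5 with MEF asks what the first days of treatment did. Of the mitosis genes 9 were called higher on day 5, led by Ccnb2, Top2a and Mki67, and Lig1 alone of the replication genes. Calls lower numbered 0 in both classes. The median change was 0.78 over the 28 mitosis genes and 0.57 over the 19 replication genes. Over all 13598 genes tested, 14.7% were called higher and 13.7% lower, and the median was 0.00908. The day 5 libraries were all above the MEF libraries for 41 of the 47 genes and all below for 1, Ccne2. By adjusted p alone, without the fold, 42 were higher and 1 lower. The shares of all genes above refer to calls with the fold. For counts of libraries without overlap and of calls without the fold, the share of all genes is not given. The same holds for calls under other scalings, pseudocounts or sets of libraries. Such counts, here and in the comparisons below, therefore have no background to be read against. The called genes were Nuf2, Ttk, Cenpa, Aurkb, Cenpf, Bub1b, Lig1, Mki67, Top2a and Ccnb2. The summed level of 8 macrophage and microglia markers was 239 to 266 CPM in MEF and 5.81 to 7.26 CPM on day 5, and its part in the result was not tested.

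Between day 5 and day 8, 0 of the 47 genes were called in either direction by limma, against 3.61% of 13259 genes called higher and 3.01% called lower. The median change was 0.38 for replication and 0.20 for mitosis genes, against 0.00206 over all genes. Adjusted p alone gave 30 genes higher and 0 lower, and the day 8 libraries were all above those of day 5 for 30 genes. The share of all genes at these 30 is again not given. The changes at this step were thus below 2-fold, and ran from -0.09 to 0.69.

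Between day 8 and CiPC calls were made in both directions. Of the mitosis genes 6 were called higher and 0 lower, with a median of 0.63: Kif23, Foxm1, Cenpf, Bub1, Ccna2 and Cdc20. Of the replication genes 0 were called higher and 1 lower, with a median of 0.15, the 1 being Ccne1. Over all 13792 genes 15.2% were called higher and 16.6% lower, with a median of -0.0361. By adjusted p alone 33 of the 47 genes were higher and 3 lower, with no share of all genes given for this criterion. The counts higher were 10 after quantile normalization and 12 after scaling all libraries to the same sum, with Ccne1 lower in both. At the same step all 10 fibroblast markers were called lower, with sums of 52645 to 56214 CPM on day 8 and 614 to 668 CPM in CiPC. Of the 12 retinal progenitor markers 10 were called higher and 1 lower, with sums of 384 to 448 and 726 to 854 CPM. Most of the day 8 sum was the single marker Sfrp2, at 418, 371 and 436 CPM, against 1.52, 1.33 and 1.34 CPM in CiPC. Sfrp2 was the 1 called lower, and 8 of the 12 had day 8 means under 1 CPM. The part of fibroblasts and progenitors in the members' changes was not tested.

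Against MEF, CiPC had 26 of 28 mitosis genes and 8 of 19 replication genes called higher, and 0 lower in either class. The median change was 1.81 for mitosis and 0.89 for replication genes, beside -0.0526 over the 13719 genes tested, of which 16.5% were called higher and 17.2% lower. The 13 genes without a call were Ccne1, Ccne2, E2f1, Cdt1, Rrm1, Tyms, Cdk2, Tk1, Mcm4, Mcm7, Kif20a, Aurka and Rrm2. All 4 genes of nucleotide supply and all 4 of G1/S control were thus among those not called. This comparison shares its MEF and CiPC libraries with the steps above. The 10 fibroblast markers summed to 19485 to 21461 CPM in MEF and 614 to 668 CPM in CiPC, with 9 of 10 still at a mean of at least 1 CPM. Most of the CiPC sum was the single marker Fn1, at 543, 553 and 515 CPM. Of the 10 markers, 8 were called lower in CiPC than in MEF and 0 higher. The 12 retinal progenitor markers summed to 43.1 to 48.8 CPM in MEF, where 7 were under 1 CPM, and to 726 to 854 CPM in CiPC, where all 12 were at 1 CPM or more. Their part in these changes was not tested.

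**Figure D3:**
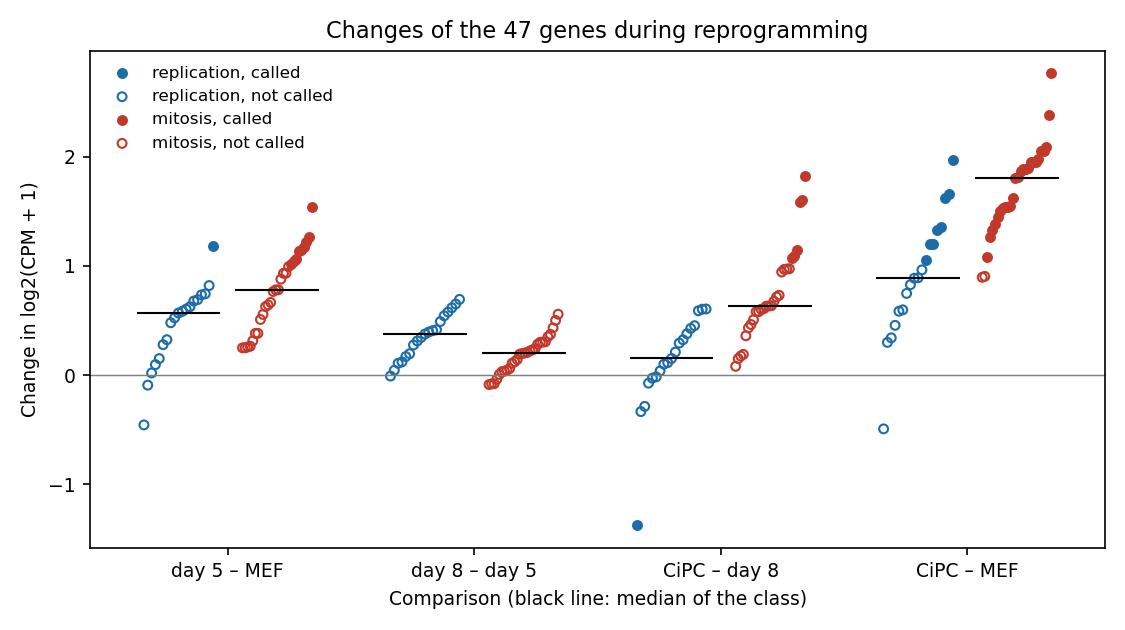
Change in log2(CPM + 1) of each gene in 4 comparisons of the cultured cells, replication genes in blue and mitosis genes in red; filled points were called, open points were not, and black lines are class medians. In CiPC against MEF the median was 1.81 for mitosis genes and 0.89 for replication genes, and Ccne1 is the low blue point in CiPC against day 8.

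Among genes of nucleotide supply, Rrm1 (ENSMUSG00000030978.10, chromosome 7, 102441695 to 102469771, plus strand) encodes the large subunit of ribonucleotide reductase. It was at 108, 118 and 107 CPM in MEF, 159, 163 and 159 on day 5, 207, 200.1 and 205 on day 8 and 172, 163 and 167 in CiPC. It was highest on day 8, and CiPC lay below all day 8 libraries and above all MEF libraries, by 0.58 ± 0.0569 (SE; adjusted p = 1.38e-05) over MEF, under the fold threshold. Tyms (ENSMUSG00000025747.12, chromosome 5, 30058202 to 30073617, minus strand), thymidylate synthase, was at 62.6, 67.3 and 69.1 CPM in MEF, 76.3, 75.5 and 69.6 on day 5, 88.5, 105 and 102 on day 8 and 91.5, 101 and 111 in CiPC. Day 8 and CiPC libraries overlapped, and the difference between CiPC and MEF was 0.60 ± 0.0782 (SE; adjusted p = 0.000102). Rrm2, the cell-cycle-regulated small subunit of the same reductase, had 73.1, 66.8 and 62.2 CPM in MEF and 121, 128 and 149 CPM in CiPC, a difference of 0.96 ± 0.0897 (SE; adjusted p = 1.02e-05) just under the threshold.

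Of the origin licensing genes, Mcm6 (ENSMUSG00000026355.11, chromosome 1, 128331590 to 128359664, minus strand), a subunit of the replicative helicase, was at 65.3, 71.1 and 66.6 CPM in MEF, 108, 111 and 109.8 on day 5, 142, 153 and 139 on day 8 and 148, 161 and 161 in CiPC. Day 8 and CiPC overlapped, and CiPC exceeded MEF by 1.20 ± 0.0599 (SE; adjusted p = 1.53e-07). Mcm7 (ENSMUSG00000029730.16, chromosome 5, 138164583 to 138172422, minus strand), another subunit, was at 57.7, 53.2 and 51.5 CPM in MEF, 55.2, 57.3 and 61.3 on day 5, 73.4, 80.6 and 78.7 on day 8 and 95, 102 and 106 in CiPC. MEF and day 5 overlapped, later groups did not, and the difference between CiPC and MEF was 0.89 ± 0.0677 (SE; adjusted p = 2.58e-06). Of the other licensing genes, Mcm2, Mcm3, Mcm5 and Cdc6 were called higher in CiPC than in MEF, with changes of 1.05, 1.62, 1.66 and 1.32. Cdt1, which loads the helicase, and Mcm4 had 0.46 and 0.89 and were not called.

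All 3 genes of the replication fork were called higher in CiPC than in MEF. Pcna (ENSMUSG00000027342.14, chromosome 2, 132249162 to 132253314, minus strand), the sliding clamp of DNA polymerases, was at 75.2, 70.3 and 70.9 CPM in MEF, 105, 98.3 and 100.05 on day 5, 155, 152 and 147 on day 8 and 181, 183 and 194 in CiPC. No 2 successive groups overlapped, and CiPC exceeded MEF by 1.35 ± 0.0548 (SE; adjusted p = 3.98e-08). Lig1 (ENSMUSG00000056394.17, chromosome 7, 13277283 to 13311433, plus strand), the ligase that seals Okazaki fragments, was at 18.6, 19.5 and 21.7 CPM in MEF, 44.8, 47.1 and 47.6 on day 5, 51.7, 53.2 and 55.5 on day 8 and 81.8, 79.4 and 81.6 in CiPC. It was the replication gene that rose most from MEF to day 5, by 1.18 ± 0.0687 (SE; adjusted p = 1.62e-07), and from MEF to CiPC, by 1.97 ± 0.0724 (SE; adjusted p = 2.11e-08). Cdc45, a partner of the MCM helicase at the fork, was higher in CiPC than in MEF by 1.20.

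The G1/S genes held the 1 member that was called lower at any step of the cultures. Ccne1 (ENSMUSG00000002068.16, chromosome 7, 38097984 to 38107534, minus strand), cyclin E1, which with Cdk2 starts S phase, was at 36, 35.8 and 35.3 CPM in MEF, 54.6, 51.9 and 53.8 on day 5, 65.7, 67.3 and 66.8 on day 8 and 25.3, 24.7 and 25.2 in CiPC. It was highest on day 8, and CiPC lay below all libraries of the other 3 groups. Between day 8 and CiPC it fell by 1.37 ± 0.0618 (SE; adjusted p = 1.07e-07). Cdk2 (ENSMUSG00000025358.16, chromosome 10, 128697939 to 128705031, minus strand), its kinase, was at 36.3, 33.1 and 39.8 CPM in MEF, 55.5, 54.2 and 57.6 on day 5, 66.6, 62 and 60.1 on day 8 and 55.1, 62.3 and 68.2 in CiPC. E2f1 (ENSMUSG00000027490.17, chromosome 2, 154559407 to 154569892, minus strand), a transcription factor of S phase genes, was at 40.7, 48.8 and 43.2 CPM in MEF, 39.6, 43.3 and 41.1 on day 5, 45.8, 39.4 and 49.3 on day 8 and 62.5, 56.6 and 50.01 in CiPC. Neither was called at any step, and for E2f1 the first 3 groups overlapped. Ccne2, cyclin E2, changed by 0.30 between MEF and CiPC and was not called.

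Among mitotic cyclins and kinases, Ccna2 (ENSMUSG00000027715.9, chromosome 3, 36564865 to 36572150, minus strand), cyclin A2 of S and G2 phase, was at 33, 28.1 and 30.9 CPM in MEF, 45.8, 46.9 and 50.7 on day 5, 59.9, 56.7 and 52.5 on day 8 and 113, 119 and 132 in CiPC. Its largest step was the last, where it rose by 1.09 ± 0.0803 (SE; adjusted p = 2.89e-06). Cdk1 (ENSMUSG00000019942.13, chromosome 10, 69335146 to 69352938, minus strand), the kinase that drives entry into mitosis, was at 59.2, 56.6 and 51 CPM in MEF, 90.0, 87.9 and 88 on day 5, 101, 105 and 109 on day 8 and 111, 118 and 128 in CiPC. CiPC lay above all day 8 libraries by 0.17, not called, and above MEF by 1.08 ± 0.0778 (SE; adjusted p = 1.79e-06). Ccnb2, cyclin B2, had the largest change among the members on day 5 and was at 11.2, 13.5 and 11.2 CPM in MEF and 35.1, 38.5 and 36.2 CPM on day 5, a rise of 1.54 ± 0.0848 (SE; adjusted p = 1.09e-07). Foxm1, the transcription factor of G2 and M phase genes, showed another course. It was at 31.8, 26.4 and 24.1 CPM in MEF, 34, 32.3 and 31.5 on day 5, 30.9, 33.3 and 36 on day 8 and 107, 99.6 and 104 in CiPC. MEF, day 5 and day 8 overlapped, and from day 8 to CiPC Foxm1 rose by 1.60 ± 0.0739 (SE; adjusted p = 1.24e-07). Aurka, the centrosomal Aurora kinase, was the member of this role not called in CiPC against MEF, at 0.90.

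Of the checkpoint and anaphase genes, Bub1b (ENSMUSG00000040084.9, chromosome 2, 118598211 to 118641591, plus strand), the BubR1 component of the spindle checkpoint, was at 16.5, 18.1 and 19.7 CPM in MEF, 40.9, 40.4 and 44.6 on day 5, 46.5, 47.3 and 43.4 on day 8 and 66.8, 70.9 and 72.3 in CiPC. It rose by 1.17 ± 0.0763 (SE; adjusted p = 3.85e-07) to day 5, and CiPC exceeded MEF by 1.89. Cdc20 (ENSMUSG00000006398.15, chromosome 4, 118432901 to 118437352, minus strand), an activator of the anaphase-promoting complex, was at 22.9, 27 and 24.9 CPM in MEF, 29.9, 28.6 and 31.3 on day 5, 30.5, 36.8 and 36.9 on day 8 and 76.2, 70.6 and 75.7 in CiPC. It rose at the last step, by 1.08 ± 0.0876 (SE; adjusted p = 5.67e-06), and the call was lost without day 8 replicate 1, at 0.99. Bub1, a checkpoint kinase, had the same kind of course, with 18.6, 20.2 and 15.5 CPM on day 8 and 38.1, 39.1 and 46.7 CPM in CiPC, a rise of 1.15 ± 0.119 (SE; adjusted p = 2.83e-05). All 5 genes of this role were called higher in CiPC than in MEF.

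All 7 kinetochore and centromere genes were likewise called higher in CiPC than in MEF. Cenpf (ENSMUSG00000026605.14, chromosome 1, 189640606 to 189688086, minus strand), a large kinetochore protein of G2 and M phase, was at 16.3, 16.2 and 16.6 CPM in MEF, 43.6, 36.6 and 32.6 on day 5, 27.8, 62.2 and 32.3 on day 8 and 108, 111 and 133 in CiPC. Day 8 replicate 2 was well above the other day 8 libraries, and the day 8 range covered that of day 5. Cenpf had the largest difference between CiPC and MEF of the 47 genes, at 2.76 ± 0.0864 (SE; adjusted p = 7.86e-09). Cenpe (ENSMUSG00000045328.11, chromosome 3, 135212537 to 135273611, plus strand), a kinetochore motor, was at 23.1, 24.8 and 22.2 CPM in MEF, 44.4, 51.4 and 41.1 on day 5, 48, 79.3 and 71.1 on day 8 and 68.6, 73.4 and 80.3 in CiPC. Day 8 and CiPC overlapped, and CiPC exceeded MEF by 1.62 ± 0.0784 (SE; adjusted p = 1.23e-07). Birc5 (survivin) and Aurkb, of the chromosomal passenger complex, were higher in CiPC than in MEF by 1.54 and 1.95.

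Of the spindle genes, Tpx2 (ENSMUSG00000027469.16, chromosome 2, 152847964 to 152895321, plus strand), which activates Aurora A and nucleates microtubules, was at 52.6, 49.8 and 51.7 CPM in MEF, 77.1, 74.6 and 76.2 on day 5, 90.8, 90.2 and 80.3 on day 8 and 124, 129 and 139.8 in CiPC. Successive groups did not overlap and CiPC exceeded MEF by 1.33 ± 0.0621 (SE; adjusted p = 9.91e-08). Prc1 (ENSMUSG00000038943.16, chromosome 7, 80294450 to 80316259, plus strand), which bundles microtubules of the central spindle, was at 35.9, 29 and 32.8 CPM in MEF, 40.1, 43.6 and 44.2 on day 5, 52.6, 53.8 and 49.8 on day 8 and 79.9, 84.6 and 94.6 in CiPC. Successive groups did not overlap, and CiPC lay above MEF by 1.38 ± 0.0933 (SE; adjusted p = 1.15e-06). Kif23, a motor of cytokinesis, was at 23.5, 14.5 and 18 CPM in MEF, 24.5, 24.9 and 20.0 on day 5, 21.6, 22.9 and 20.8 on day 8 and 76.5, 78.3 and 83.4 in CiPC. The 3 earlier groups overlapped, and the rise of 1.82 ± 0.0709 (SE; adjusted p = 4.11e-08) at the last step was the largest of the members. Kif20a, the motor not called, was higher in CiPC than in MEF by 0.90.

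Both genes of chromosome structure were called higher on day 5 and in CiPC against MEF. Mki67 (ENSMUSG00000031004.8, chromosome 7, 135689784 to 135716361, minus strand), the Ki-67 protein that coats mitotic chromosomes and marks dividing cells, was at 74.4, 80.1 and 77.3 CPM in MEF, 185, 175 and 181 on day 5, 209, 222 and 202 on day 8 and 380.3, 407 and 434 in CiPC. No 2 groups overlapped, and Mki67 rose by 1.22 ± 0.042 (SE; adjusted p = 3.71e-09) to day 5 and by 2.38 ± 0.0612 (SE; adjusted p = 2.53e-09) from MEF to CiPC. Top2a (ENSMUSG00000020914.17, chromosome 11, 98992943 to 99024189, minus strand), the topoisomerase that untangles sister chromatids, was at 71.6, 66.7 and 70.5 CPM in MEF, 169, 164 and 172 on day 5, 235, 247 and 203 on day 8 and 279, 285 and 314 in CiPC. Successive groups did not overlap. Top2a rose by 1.26 ± 0.0422 (SE; adjusted p = 2.96e-09) to day 5, and CiPC exceeded MEF by 2.06.

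Other genes of the pathways were counted in lists chosen with earlier results of these data known. Of 41 further replication genes, 13 were called higher and 1 lower on day 5 against MEF, led by Cdc7, the kinase that fires origins, at 2.18, and the 1 lower was the origin subunit Orc4, at -1.32. From day 8 to CiPC 0 were higher and 1 lower, the 1 being Chaf1b at -1.05. From MEF to CiPC 19 were higher and 0 lower, led by the polymerase alpha subunits Prim1 and Pola1 at 1.72 and 1.72. Of 61 further mitosis genes in the table, 11 were higher and 0 lower on day 5, led by the centromere chaperone Hjurp at 1.64. From day 8 to CiPC 12 were higher and 0 lower, led by Kif18a, a kinesin of chromosome alignment, at 2.38. From MEF to CiPC 49 were higher and 1 lower, again led by Kif18a, at 2.72, and the 1 lower was Gtse1, a regulator of p53 in G2 phase, at -1.14. From day 5 to day 8 no gene of either list was called. The shares of all genes called higher and lower were 14.7% and 13.7% on day 5 against MEF. They were 15.2% and 16.6% from day 8 to CiPC, and 16.5% and 17.2% from MEF to CiPC.

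The list of 36 cell cycle regulators, of cyclins, kinases and their inhibitors, held called genes of both directions. Ccnd1, cyclin D1, which links growth signals to G1, was at 283, 301 and 303 CPM in MEF, 66.3, 71.4 and 64.4 on day 5, 19.9, 20.3 and 26.9 on day 8 and 907, 822 and 798 in CiPC. It fell by 2.12 ± 0.0478 (SE; adjusted p = 1.91e-10) to day 5 and by 1.56 to day 8, and then rose by 5.18 ± 0.113 (SE; adjusted p = 1.24e-09). Ccnd1 was thus lowest on day 8, when all Mki67 values were above those of MEF, and in CiPC it was above MEF by 1.51. Cdkn1a, the p21 inhibitor of cyclin-dependent kinases, was at 1141, 1123 and 1174 CPM in MEF, 232, 238 and 239.8 on day 5, 329.6, 342 and 349 on day 8 and 75, 75.7 and 75 in CiPC. It fell by 2.27 to day 5, by 2.16 from day 8 to CiPC and by 3.91 ± 0.0434 (SE; adjusted p = 5.01e-11) from MEF to CiPC. Cdkn1c, the p57 inhibitor, was at 81.8, 86.5 and 89.8 CPM in MEF, 762, 832 and 688 on day 5, 447, 448 and 509 on day 8 and 38, 31.8 and 28.9 in CiPC. It rose by 3.13 ± 0.0649 (SE; adjusted p = 1.09e-10) to day 5 and fell by 3.80 from day 8 to CiPC, which was below MEF by 1.37. Cdkn2a and Cdkn2b, inhibitors tied to senescence, fell by 3.00 and 2.39 from MEF to CiPC. At the last step they fell by 2.48 and 1.10, and Cdkn2b had fallen by 1.13 to day 5.

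The inhibitors Cdkn1b and Cdkn2c were higher in CiPC than in MEF. Cdkn1b, the p27 inhibitor, rose by 1.28 to day 5 and by 1.40 from day 8 to CiPC, and CiPC exceeded MEF by 2.55 ± 0.0728 (SE; adjusted p = 4.61e-09). Cdkn2c, the p18 inhibitor, was at 3.09, 3.15 and 3.69 CPM in MEF, 32.2, 29.9 and 32.2 on day 5, 75, 81.6 and 76.7 on day 8 and 30.4, 30.9 and 31.4 in CiPC. It rose by 2.91 and 1.28 at the first 2 steps and fell by 1.30 at the last, with CiPC above MEF by 2.89. Ccnd2, cyclin D2, was lower in CiPC than in MEF by 2.12, and had fallen by 1.69 to day 5. The other regulators among the 3 largest calls of a step were E2f2, of the E2F family, and Cdk6, a partner of D-type cyclins. E2f2 rose by 2.03 and 1.29 to days 5 and 8, and Cdk6 fell by 1.89 to day 5 and rose by 2.36 from day 8 to CiPC. In all, 5 of 36 regulators were higher and 5 lower on day 5 against MEF, beside 14.7% and 13.7% of all genes. On day 8 against day 5 they numbered 2 and 1, beside 3.61% and 3.01%. In CiPC against day 8 they numbered 4 and 6, beside 15.2% and 16.6%. In CiPC against MEF they numbered 8 and 5, beside 16.5% and 17.2%.

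CiPC were then set against P5 rods, the rods processed in the same series. All 47 genes were called higher in CiPC, against 24.8% of 13546 genes called higher and 18.5% lower. The median change was 4.27 for mitosis and 3.32 for replication genes, beside -0.0313 over all genes. For all 47 the lowest CiPC library was above the highest P5 library, and the share of all genes separated in this way is not given. The largest differences were those of Rrm2, with 121, 128 and 149 CPM in CiPC and 0.598, 0.996 and 0.694 CPM in P5 rods, and of Mki67, with 380.3, 407 and 434 CPM in CiPC and 4.25, 5.04 and 4.16 CPM in P5 rods. They came to 6.25 ± 0.118 (SE; adjusted p = 7.97e-11) and 6.22 ± 0.084 (SE; adjusted p = 1.7e-11). Rrm2 was thus under 1 CPM in all P5 libraries. Cdk1 followed, with 0.786, 0.999 and 1.59 CPM in P5 rods and a difference of 5.83. The smallest difference was that of Mcm7, with 95, 102 and 106 CPM in CiPC and 48.3, 45.9 and 46.4 CPM in P5 rods, which came to 1.09 ± 0.0641 (SE; adjusted p = 1.46e-07). Lig1 came next, with 31.6, 34 and 32.9 CPM in P5 rods and a difference of 1.28. After quantile normalization Cdt1, and after scaling to the same sum Mcm7, was no longer called, at 0.99 and 0.97.

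Of the further replication genes 28 of 41 were called higher and 0 lower in CiPC than in P5 rods, led by Clspn, a mediator of the replication checkpoint, at 3.97. Of the further mitosis genes 56 of 61 were higher and 0 lower, led by Pbk, a mitotic kinase, at 5.57. Regulators numbered 20 of 36 higher and 3 lower, beside 24.8% of all genes higher and 18.5% lower. Ccnd2 and Ccnd1 were higher in CiPC by 6.01 and 5.15, and Ccnd3 by 2.90. The inhibitors Cdkn2b, Cdkn2c, Cdkn2a and Cdkn1c were higher by 4.23, 3.25, 2.75 and 1.24. Lower were Cdkn1a, at -1.46, and Rbl2 and Lin52, of the complex that represses cell cycle genes in resting cells, at -1.02 and -1.01. Müller glia markers summed to 2232 to 2277 CPM in CiPC and 247 to 271 CPM in P5 rods, retinal progenitor markers to 726 to 854 and 566 to 619.6 CPM and fibroblast markers to 614 to 668 and 28.2 to 32.3 CPM. Most of the fibroblast sum in CiPC was Fn1, at 543, 553 and 515 CPM, against 17.1, 14.2 and 14.3 CPM in P5 rods. Of 9 fibroblast markers tested, 7 were called higher in CiPC and 0 lower. The part of such cells in the difference was not tested.

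The P5 rods of the newer series were also set against the average of the P4 and P6 rods of the older series, the ages on either side. Of the mitosis genes 26 of 28 were called lower in P5 rods and 0 higher, with a median of -2.07. Of the replication genes 12 of 19 were called lower and 0 higher, with a median of -1.26. Over all 13652 genes 13.1% were called lower and 8.22% higher, with a median of -0.0868. The series, its processing and the rods cannot be told apart here. The counts of members lower were 38 under quantile, median-of-ratios and same-sum scaling alike.

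Mki67 was at 202 and 239.9 CPM at P4, 4.25, 5.04 and 4.16 at P5 and 88.2, 42.2 and 64.7 at P6, so that all P5 libraries lay below the lowest P6 library, and the contrast was -4.43 ± 0.196 (SE; adjusted p = 5.11e-08). Top2a was at 167 and 191 CPM at P4, 5.24, 4.62 and 3.24 at P5 and 57.2, 42 and 52.4 at P6, a contrast of -4.18 ± 0.149 (SE; adjusted p = 1.44e-08). Rrm2 was at 25.6 and 33.6 CPM at P4, 0.598, 0.996 and 0.694 at P5 and 12.1, 8.69 and 5.92 at P6, with -3.28. These 3 genes and Cenpf, at -3.18, had the largest decreases. Cdk1 was at 23 and 21.3 CPM at P4, 0.786, 0.999 and 1.59 at P5 and 11.5, 6.37 and 5.61 at P6. Tpx2 was at 45 and 58.5 CPM at P4, 3.01, 3.44 and 3.21 at P5 and 22, 14.9 and 14.9 at P6. Both were lowest at P5. Cenpe was at 39.2 and 50.7 CPM at P4, 3.85, 3.73 and 3.41 at P5 and 17.2, 10.8 and 12.6 at P6. Prc1, of the central spindle, was at 35.6 and 36.7 CPM at P4, 9.06, 9.16 and 8.36 at P5 and 20.6, 17.9 and 12.3 at P6. Their P5 libraries too were the lowest of the 3 ages.

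Replication genes included more members without a call. Pcna was at 144 and 136 CPM at P4, 39.7, 41.6 and 42.4 at P5 and 100.2, 87.1 and 98.7 at P6, a contrast of -1.47 ± 0.0844 (SE; adjusted p = 2.68e-07). Rrm1 was at 114 and 118 CPM at P4, 37.3, 37.5 and 41.8 at P5 and 75.3, 77.7 and 78.5 at P6, with -1.26. Mcm6 was at 44.4 and 56.7 CPM at P4, 11.6, 12.5 and 12.9 at P5 and 30.4, 22.6 and 25.1 at P6, with -1.48. All 3 were called lower, and their P5 libraries did not overlap P4 or P6. Lig1 was at 40.7 and 43.6 CPM at P4, 31.6, 34 and 32.9 at P5 and 29.4, 28.3 and 31.8 at P6, where P5 and P6 overlapped, and was not called at -0.11 ± 0.0906 (SE; adjusted p = 0.312). Mcm7 was at 78.8 and 87.2 CPM at P4, 48.3, 45.9 and 46.4 at P5 and 71, 81.4 and 61.9 at P6 and missed the fold at -0.70. Also without a call were Cdc45, Mcm4, Tk1, Mcm5, Cdt1 and Kif20a, with contrasts from -0.84 to -0.44. Aurka was the 1 member with a positive contrast, with 7.4 and 8.33 CPM at P4, 9.04, 8.63 and 9.78 at P5 and 4.87, 4.32 and 2.28 at P6, and 0.66 ± 0.192 (SE; adjusted p = 0.0114) was under the fold threshold.

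**Figure D4:**
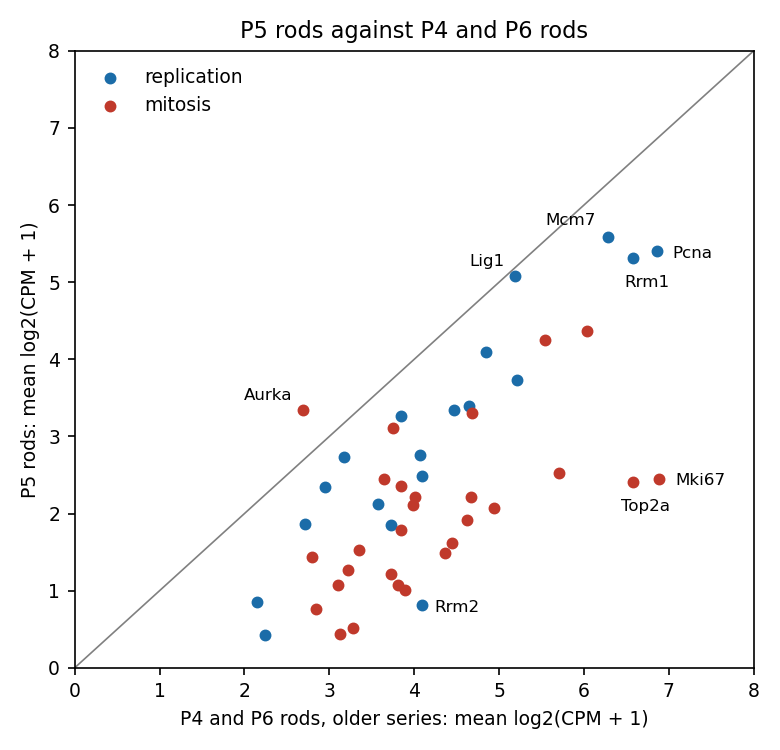
Mean log2(CPM + 1) of each gene in P5 rods (vertical) against the mean of P4 and P6 rods of the older series (horizontal), replication genes in blue and mitosis genes in red; the grey line marks equal levels. Mki67 and Top2a lie furthest below the line, Lig1 lies on it and Aurka above it.

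Regulators were called in both directions. Cdkn1a was at 3.43 and 2.88 CPM at P4, 206, 205 and 213 at P5 and 4.48, 9.05 and 3.09 at P6, a difference of 5.38 ± 0.234 (SE; adjusted p = 4.82e-08). Ccnd1 was at 334 and 446 CPM at P4, 23.2, 22.1 and 22.8 at P5 and 262, 172 and 172 at P6, with -3.55. E2f8, a repressor of the E2F family, was lower in P5 rods by 2.75, Cdkn2c by 1.59 and Cdkn1b by 1.24. In all 4 of 34 regulators tested were called higher, namely Cdkn1a, E2f6, Lin37 and E2f3, and 8 lower. The shares of all genes were 8.22% higher and 13.1% lower. Further mitosis genes were lower in 40 and higher in 1 of 61, and Gtse1 was the 1 that was higher, at 2.31. Pbk had the largest decrease of that list, at -3.98. Further replication genes were lower in 13 and higher in 1 of 41, the 1 higher being the single-strand binding subunit Rpa1, at 1.13.

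Marker genes of other retinal cells were measured in the same libraries. Retinal progenitor markers summed to 716 to 863 CPM in P4, 566 to 619.6 in P5 and 672 to 952 in P6 rods. Within that list Sox2 was at 25.3 and 36.3 CPM at P4, 2.48, 1.82 and 2.13 at P5 and 31.7, 27.2 and 21.3 at P6. Fgf15 and Sfrp2 had means under 1 CPM in P5 rods. Müller glia markers summed to 657 to 730.3 CPM at P4, 247 to 271 at P5 and 547 to 867 at P6. Endothelial markers summed to 251 to 299 CPM at P4, 45.2 to 47.5 at P5 and 152 to 253 at P6. Nearly all of that sum was the single marker Kdr, at 247 and 295 CPM at P4, 44.3, 42 and 42.6 at P5 and 247, 144 and 149 at P6. Pecam1 was at 1.5 and 2.14 CPM at P4, 2.3, 2.12 and 2.13 at P5 and 3.96, 6.31 and 4.92 at P6. Of 3 endothelial markers tested, 1 was called lower in P5 rods and 0 higher. Mitochondrially encoded transcripts took 1.96 to 2.57% of the P5 libraries and 4.37 to 8.91% of those of P4 and P6. The part of these in the lower members was not tested.

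In the older series the genes were followed by age. A slope on log2 age over P2 to P28 was negative and called for 27 of 28 mitosis genes and 15 of 19 replication genes, and positive and called for 0. The fitted change over the whole range had a median of -5.17 for mitosis and -3.28 for replication genes, against -0.312 over all genes, of which 32.6% were called lower and 21.4% higher. The straight line makes the fitted change of a gene that falls early larger than its measured difference. The 5 genes without a call were Pcna, Rrm1, Lig1, Cdc45 and Bub1b. Without the 2 libraries that stand apart the count lower was 42, as with all libraries. After scaling all libraries to the same sum the median of all genes moved to -1.51, and all 47 genes, these 5 included, were called lower. The share of all genes called lower under that scaling is not given, so this count has no background to be read against.

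The sum of the 12 retinal progenitor markers was lower in all libraries from P10 onward than at P2 to P6, while P4 overlapped P6 and P14 overlapped P28. It was 1256 to 1731 CPM at P2, 716 to 863 at P4, 672 to 952 at P6, 366 to 429 at P10, 149 to 272 at P14 and 80.5 to 172 at P28. Most of the P28 sum was the single marker Rax, at 65.9, 130, 148 and 133 CPM. Called negative slopes were found for 11 of the 12 markers, beside 32.6% of all genes, and Rax was the 1 without a call. Of these markers 2 had means under 1 CPM at P10 and 5 at P28. Rod markers summed to 4702 to 4786 CPM at P2 and 159786 to 206686 CPM at P28. The part of progenitors among the sorted cells in the members' decline was not tested.

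Single steps were taken from the same libraries. From the mean of P2 and P4 to P6, 27 mitosis and 13 replication genes were called lower and 0 higher, with medians of -2.03 and -1.27, while 1.94% of the 13884 genes were called lower and 1.02% higher, with a median of 0.0133. From P6 to P10, 22 and 13 were lower and 0 higher, with medians of -2.03 and -1.28, against 7.92% of all genes lower and 7.07% higher, with a median of -0.0669. Without the libraries that stand apart these counts were 41 members lower at the first step and 37 at the next, instead of 40 and 35. The largest changes at the first step were Top2a (-2.38) and Birc5 (-2.37), and at the next Mki67 (-4.74) and Top2a (-4.11). These contrasts share the P6 libraries.

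Mki67 was at 444 and 505 CPM at P2, 1.37, 1.54, 1.14 and 1.42 at P10, 0.195, 0.393 and 0.241 at P14 and was listed at 0 in all 4 P28 libraries. Top2a was at 377 and 416 CPM at P2, 1.65, 1.61, 2.57 and 2.09 at P10, 0.471, 0.336 and 0.704 at P14 and 0.64, 0, 0.264 and 0 at P28. Cdk1 was at 57.2 and 52 CPM at P2, 0.292, 0.731, 0.545 and 0.435 at P10, 0.609, 0.0694 and 0.435 at P14 and 0.0548, 0.228, 0 and 0.943 at P28. From P10 onward these 3 genes were below 3 CPM in all libraries, and their slopes were -10.26 ± 0.908 (SE; adjusted p = 6.16e-09), -9.55 ± 0.803 (SE; adjusted p = 3.27e-09) and -5.90 ± 0.614 (SE; adjusted p = 5.39e-08).

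Cdc20 fell from 54.6 and 42.5 CPM at P2 to 0.663, 0.594, 0.693 and 1.16 at P10 and 0.546, 0.253, 0.0514 and 0.139 at P28, with a slope of -5.73 ± 0.512 (SE; adjusted p = 7.01e-09). Cenpf was at 176 and 164 CPM at P2, 2.24, 3.76, 2.14 and 4.06 at P10, 2.48, 1.03 and 4.79 at P14 and 2.99, 0.9, 1.63 and 3.96 at P28. Tpx2 was at 99.2 and 109 CPM at P2, 1.61, 1.83, 1.21 and 1.49 at P10, 1.61, 2.62 and 1.76 at P14 and 1.73, 2.5, 1.75 and 2.52 at P28. Both were under 5 CPM in all libraries from P10 onward, with slopes of -6.43 and -5.62.

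Cenpe and Ccna2 were above 5 CPM in all libraries from P10 onward. Cenpe was at 71.7 and 83.8 CPM at P2, 5.85, 7.02, 9.13 and 7.4 at P10, 9.83, 9.64 and 19.5 at P14 and 23.2, 7.05, 7.32 and 7.07 at P28. P14 replicate 3 and P28 replicate 1 were the high libraries of their ages, and the slope of -2.74 ± 0.556 (SE; adjusted p = 0.000206) was called. Prc1 was at 77.9 and 95.7 CPM at P2, 2.59, 1.84, 4.24 and 9.56 at P10, 3.51, 2.33 and 4.24 at P14 and 4.94, 1.38, 4.52 and 1.26 at P28, with the highest P10 value in replicate 4, which stands apart. Ccna2 was at 189 and 193 CPM at P2, 106 and 111 at P4, 37.3, 40.9 and 36.9 at P6, 18.8, 14.1, 12.6 and 41.4 at P10, 19.6, 24 and 72.3 at P14 and 19.3, 8.54, 9.06 and 16 at P28. In P10 replicate 4 and P14 replicate 3 Ccna2 was at least 2-fold above the other libraries of that age. Ccna2 was not called from P6 to P10, at -0.95 ± 0.414 (SE; adjusted p = 0.0918). Its slope was -3.68.

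Origin licensing and G1/S genes went down with the mitosis genes. Mcm6 was at 144 and 141 CPM at P2, 3.81, 4.29, 4.42 and 5.57 at P10, 2.58, 3.57 and 4.04 at P14 and 3.73, 3.12, 3.09 and 3.66 at P28, with a slope of -5.36 ± 0.522 (SE; adjusted p = 2.23e-08). Mcm7 was at 131 and 126 CPM at P2, 21.5, 25.8, 23.9 and 24.4 at P10, 15.9, 13.2 and 17.2 at P14 and 16.9, 21.3, 16.4 and 16.8 at P28, with a slope of -3.22 ± 0.343 (SE; adjusted p = 7.6e-08). All 8 licensing genes had called negative slopes, from -5.36 for Mcm6 to -2.31 for Mcm2. Cdk2 was at 35.7 and 36.9 CPM at P2, 1.82, 1.94, 1.86 and 1.4 at P10, 0.83, 0.211 and 0.838 at P14 and 0.757, 1.14, 0.414 and 0.463 at P28. E2f1 was at 61.3 and 45.1 CPM at P2, 1.43, 2.27, 1.87 and 1.4 at P10, 0.987, 2.01 and 0.393 at P14 and 0.454, 0.766, 0.567 and 0.549 at P28, and its slope of -5.48 ± 0.455 (SE; adjusted p = 2.8e-09) was the largest of its role. Tyms was at 66.9 and 52.9 CPM at P2, 6.69, 11.4, 4.93 and 11.2 at P10, 5.56, 1.99 and 8.19 at P14 and 3.39, 7.51, 8.04 and 8.49 at P28, a slope of -3.14.

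The genes without a called slope were not lowest at P28. Pcna was at 229 and 233 CPM at P2, 100.2, 87.1 and 98.7 at P6, 127, 145, 139 and 99.8 at P10, 178, 165 and 86.8 at P14 and 196, 234, 224 and 199 at P28. Its P28 libraries lay above those of P10 and reached those of P2, with a slope of 0.24 ± 0.358 (SE; adjusted p = 0.565). Rrm1 was at 182 and 174 CPM at P2, 75.3, 77.7 and 78.5 at P6, 38.2, 43.9, 52.6 and 39.6 at P10, 53.9, 71.7 and 45.6 at P14 and 78.8, 97.7, 98.5 and 108 at P28. Lig1 was at 75 and 80.4 CPM at P2, 29.4, 28.3 and 31.8 at P6, 11.6, 9.97, 11.3 and 11.1 at P10, 8.84, 10.2 and 15.4 at P14 and 28.7, 38.6, 38.2 and 30.2 at P28. Both were lowest at P10 or P14 and higher in all 4 P28 than in all 4 P10 libraries. Bub1b was at 67.9 and 83.1 CPM at P2, 45.4, 43.4 and 40.6 at P6, 24.4, 32.5, 19 and 15.8 at P10, 31, 23 and 31.8 at P14 and 40.8, 67.2, 57.4 and 65.4 at P28, again above all P10 libraries at P28.

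From P10 to P28 calls were made in both directions, and their number depended on the settings. Of the 19 replication genes 4 were called higher and 1 lower, and of the 28 mitosis genes 1 higher and 2 lower, with medians of -0.27 and -0.29. Over all genes 7.04% were called higher and 21% lower, with a median of -0.199. Lig1 rose by 1.53 ± 0.158 (SE; adjusted p = 5.88e-07) and Bub1b by 1.32 ± 0.203 (SE; adjusted p = 4.25e-05). Cdc45, Mcm3 and Rrm1 rose by 1.26, 1.24 and 1.12. Lower were Top2a (-1.30), Mki67 (-1.24) and Tk1, thymidine kinase (-1.25). Mcm3 was at 2.46, 1.26, 1.56 and 1.1 CPM at P10 and 3.1, 5.64, 4.66 and 7.49 at P28. Cdc45 was at 3.41, 4.85, 5.34 and 1.91 CPM at P10 and 8.66, 12, 11 and 9.34 at P28. Both had all P28 libraries above all P10 libraries. Tk1 was at 2.53, 1.08, 0.487 and 5.95 CPM at P10 and 0.219, 0.216, 0.151 and 0.372 at P28, highest in P10 replicate 4. The Tk1 call rested on P10 replicate 4, without which the change was -0.84 and not called.

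With a pseudocount of 0.5 in place of 1 the members called lower numbered 6, with 0.1 they numbered 13, and by adjusted p alone 8 members were higher and 11 lower. The rises at P28 depended on how the libraries were scaled. Scaled to the same sum, 0 members were higher and 7 lower at P28 than at P10, and Lig1, Mcm3, Cdc45, Bub1b and Rrm1 changed by 0.67, 0.53, 0.48, 0.45 and 0.24. Quantile normalization gave 13 higher and 1 lower, and Rrm1 at 0.80 was then not called. What share of all genes was called under each of these settings is not given. With the authors' scaling the replication genes took 0.0205 to 0.0272% of the column sum at P10 and 0.0195 to 0.0212% at P28. So their summed CPM, carried largely by Pcna, Rrm1 and Lig1, was higher at P28, while their shares of the column overlapped.

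**Figure D5:**
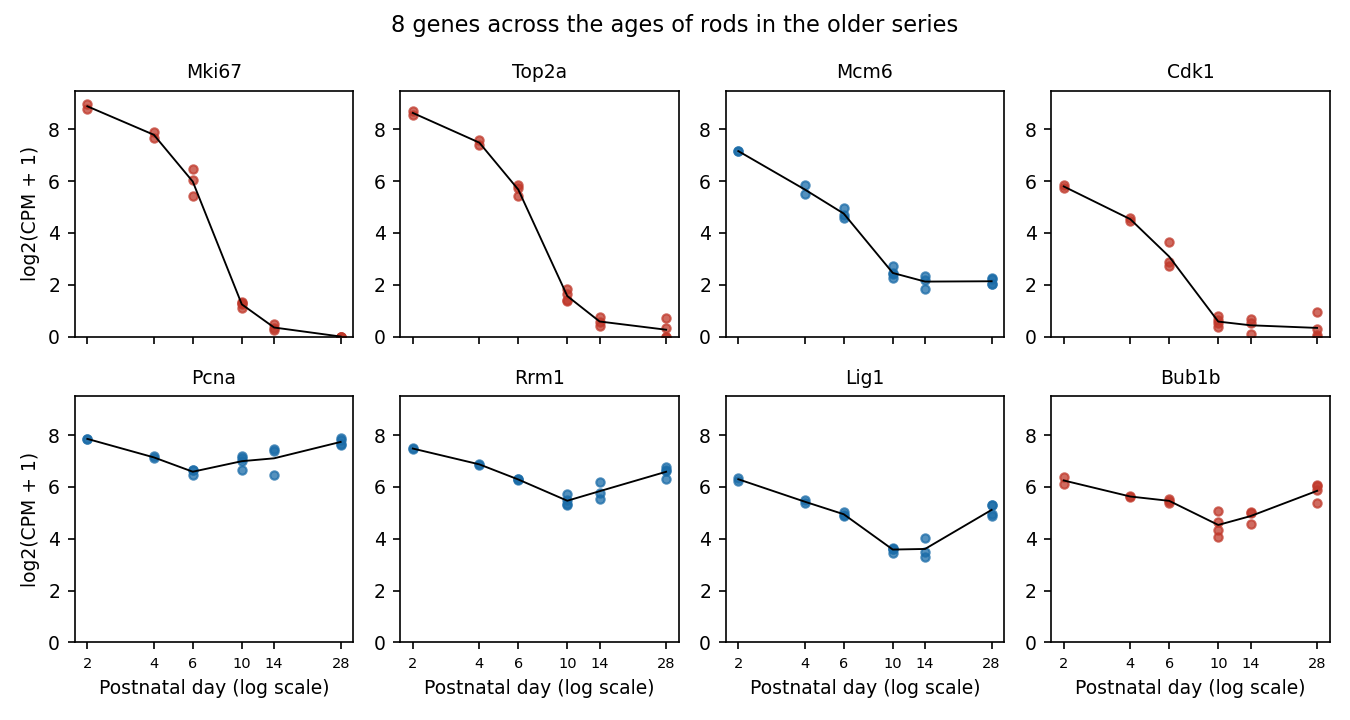
Level in log2(CPM + 1) of 8 genes in each library of the older rods against postnatal day on a log scale; points are libraries, lines join age means, replication genes are blue and mitosis genes red. Mki67 falls from 444 and 505 CPM at P2 to 0 at P28, whereas Pcna, Rrm1, Lig1 and Bub1b lie higher at P28 than at P10.

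Of the further replication genes 22 had called negative and 2 positive slopes, beside 32.6% and 21.4% of all genes. Dbf4, the activator of Cdc7, had the steepest decline, at -4.32, and the positive slopes were those of Rpa1 and Rfc1, at 2.04 and 1.06. Of the further mitosis genes 52 were negative and 1 positive, with Pbk at -7.02 and the 1 positive gene, Pttg1, the securin of anaphase, at 1.69. At the step from P2 and P4 to P6, 10 further replication and 46 further mitosis genes were lower and 0 higher. From P6 to P10 it was 9 and 30 lower, and Cenpm, a centromere protein, was the 1 higher, at 1.06. From P10 to P28 7 further replication genes were higher and 0 lower, among them Pold1 and Prim1 at 1.31 and 1.26. Of the further mitosis genes 3 were higher and 8 lower, the 3 being Mad2l1, Pttg1 and Kif18a at 1.40, 1.28 and 1.06, and the largest decrease that of Hjurp at -2.18. Beside these counts, 1.94% of all genes were lower and 1.02% higher to P6, 7.92% and 7.07% to P10, and 21% and 7.04% to P28. At P28 both counts of the further mitosis genes, out of 61, were thus smaller shares than those of all genes. The calls of these lists at P28 use the authors' scaling and were not run under other scalings.

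Called slopes were negative for 32.6% and positive for 21.4% of all genes. Among the 34 regulators tested 19 had called negative and 2 positive slopes, the latter being Rbl2 and Lin52. Ccnd1 had the steepest, at -8.69 ± 0.615 (SE; adjusted p = 4.48e-10), with 1134 and 1022 CPM at P2, 15.5, 13.4, 16.2 and 15.1 at P10 and 3.01, 4.38, 6.03 and 2.53 at P28. Cdkn1a and Ccnd2 had slopes of -3.24 and -2.41. Ccnd1 fell by 1.70 to P6, by 3.63 to P10 and by 1.74 to P28, Ccnd2 by 1.00 from P6 to P10 and Cdkn1a by 1.49 from P10 to P28. Cdkn2c was at 22.8 and 19.5 CPM at P2, 4.54, 3.93, 3.66 and 3.6 at P10 and 35.6, 34.9, 36.8 and 35.4 at P28. It rose by 2.90 ± 0.129 (SE; adjusted p = 9.89e-11) from P10 to P28, and was the 1 regulator called higher at that step. The counts of regulators lower and higher were 5 and 0 to P6, 11 and 0 to P10, and 9 and 1 to P28. The shares of all genes lower and higher were 1.94% and 1.02%, 7.92% and 7.07%, and 21% and 7.04% at these steps.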

How the data were processed

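Values of 33 libraries in 11 groups, from 36 listed samples, were analysed; 3 samples of P3 rods were not analysed here. The submitters' processing notes name kallisto, without a version; build, strand and the way libraries were scaled: not given in the sources used here. The values the authors deposited are a normalized CPM signal for each gene. Depth and the precision it gives are unknown, and the values could not be turned back into whole reads, so no count model was fitted. All value columns were used (0 unmapped). Samples held 80 ng RNA, per the labels' protocols. The protocol listed alike for all samples says that cells were sorted on the reporter, which is uncertain for MEF, day 5 and day 8.

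Values were analysed as log2(CPM + 1). Genes that reached 1 CPM in 3 or more of the libraries fitted (2 where the smallest group has 2) were tested with limma 3.58.1 in R 4.3.3, with moderated variances, a mean trend and Benjamini-Hochberg adjustment over all genes tested. Each comparison was fitted on its own groups; steps between ages came from a single fit with a mean per age. Calls needed both an adjusted p below 0.05 and 2-fold change. The procedure was tested on simulated data. Coordinates are those of GENCODE M21 (GRCm38), matched by identifier, and promoter windows are from RefSeq (GRCm38.p6).

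The members, gene lists and naming rule were chosen with earlier results of these data known. In each role the 2 genes with the highest mean CPM are given in full. For each comparison the 2 largest called changes in each direction and genes called against their class are named. Of the further lists, the largest called changes and each called D-type cyclin or inhibitor are eligible. Alternatives covered the pseudocount, the filter, quantile, median-of-ratios and same-sum scaling, the variance trend, calls without the fold, a replicate block, the samples in the fit, age on a linear scale and each library left out; leaving out the 2 libraries that stand apart was added after seeing the data.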

Additional observations from a re-analysis of the deposited data

Results flagged for a closer look

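Among 40 tests of the 18 genes described in full and the 2 class sums in the 2 groups of 4 libraries (P10 and P28), 2 had a library far from the other 3, where chance gives about 1 in 20. Cenpe in P28 replicate 1 was at 23.2 CPM against 7.05 to 7.32 CPM in the others, a gap of 0.983 of the range, past Dixon's critical value. Mcm7 in P28 replicate 2 was at 21.3 CPM against 16.4 to 16.9 CPM, a gap of 0.901 of the range.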

How the results depend on the processing

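No called member changed sign under any alternative run, but for P28 against P10, with 5 higher and 3 lower, the balance of calls turned with the setting. By adjusted p alone, without the fold, the counts were 42 higher and 1 lower for day 5 against MEF, 30 higher for day 8 against day 5, 33 higher and 3 lower for CiPC against day 8, 1 lower for CiPC against MEF, 1 higher for P5 against P4 and P6 rods, and 8 higher and 11 lower for P28 against P10. The share of all genes is not given beside these counts, nor beside those under other settings below. Quantile normalization gave 10 higher for CiPC against day 8, and 13 higher and 1 lower for P28 against P10. Scaling to the same sum gave 12 higher for CiPC against day 8, and 0 higher and 7 lower for P28 against P10, where the median of all genes was then -0.81. A pseudocount of 0.1 gave 13 lower and of 0.5 gave 6 lower for P28 against P10. The cause was not tested.

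Leaving out each library in turn gave 9 to 11 members higher for day 5 against MEF, 5 to 8 for CiPC against day 8, 34 for CiPC against MEF and 47 for CiPC against P5 rods. It gave 38 to 39 lower for P5 against P4 and P6 rods, 42 to 44 for the age slope, 33 to 41 and 33 to 37 for the steps to P6 and P10, and 5 to 6 higher and 2 to 3 lower for P28 against P10. Where a P2 or P4 library was left out, the lone library of that age was assumed to vary like the other groups. Same-numbered replicates deviated from their group means with correlations of -0.515 to 0.167, and differently numbered ones with -0.576 to 0.599. The numbers were therefore not taken to pair samples. Deviations shared under other numbers were not modelled. With the replicate number as a replicate block, 10 members were higher for day 5 against MEF and 39 lower at the step to P6, where Cdt1 and Mcm2 lost and Lig1 gained the call; no count moved by more than 1.5 times. The unknown depth limits what can be said of genes near 0 CPM.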
